A study of Mus musculus with 4 samples.

Results

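The homeostatic lymphoid chemokines Ccl19, Ccl21a, Cxcl13 and Cxcl12 and their receptor genes Ccr7, Cxcr5 and Cxcr4 were compared between the 2 lymph nodes that drain the pancreas. They were taken as a named set of 7 genes, and their probes were found through the transcript accession that each spot carries. The array held 10 such probes among its 41174, and all 10 passed the filter on dim probes that left 27603 for testing. The 7 genes were thus all measured, among 13401 named genes that were tested.

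From each of 4 female NOD mice aged 12 weeks came a gastric (left pancreatic) and a pancreatico-duodenal (right pancreatic) lymph node. NOD is an inbred strain that develops autoimmune diabetes spontaneously, and no treatment, transgene or other allele is given in the labels. Amplified RNA of both whole nodes of a mouse shared 1 Agilent array, with the gastric node in Cy5 and the pancreatico-duodenal node in Cy3. Each log2 ratio is gastric over pancreatico-duodenal node within a mouse, so a positive value is a higher signal in the gastric node. The dyes ran the same way on all 4 arrays, and the effects of dye and node cannot be told apart. In whole nodes, fewer cells of a type and less RNA per cell cannot be told apart either.

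Homeostatic chemokines are made continuously in lymphoid organs and place cells within them, in contrast to chemokines induced at sites of inflammation. CCL19 and CCL21 bind CCR7 and bring naive T cells and mature dendritic cells into the T cell zone, where fibroblastic reticular cells are a main source of both. CXCL13 is made by follicular stroma, including follicular dendritic cells, and binds CXCR5 on B cells and follicular helper T cells. CXCL12 is a product of many stromal and endothelial cells and binds CXCR4, which most leukocytes carry.

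The sequence before the start site differs in kind among these genes, and 150 bases of it are shown to set the ligands beside each other. RefSeq windows were at hand for Ccl19, Ccl21a, Cxcl13, Cxcl12 and Cxcr4. They lie in the assembly GRCm38.p6 at chr4:42756366-42756515 (minus strand), chr4:42773992-42774141 (minus), chr5:95956789-95956938 (plus), chr6:117168385-117168534 (plus) and chr1:128592300-128592449 (minus). Each ends at the base before the start and is written 5′ to 3′ along the gene, with TATAAA and GGGCGG on either strand in capitals.
Ccl19: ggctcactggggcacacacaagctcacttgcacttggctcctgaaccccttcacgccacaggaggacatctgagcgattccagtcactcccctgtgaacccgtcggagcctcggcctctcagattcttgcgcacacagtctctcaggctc
Ccl21a: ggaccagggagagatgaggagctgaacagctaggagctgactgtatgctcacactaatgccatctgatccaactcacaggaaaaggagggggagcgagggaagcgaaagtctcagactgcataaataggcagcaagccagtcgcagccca
Cxcl13: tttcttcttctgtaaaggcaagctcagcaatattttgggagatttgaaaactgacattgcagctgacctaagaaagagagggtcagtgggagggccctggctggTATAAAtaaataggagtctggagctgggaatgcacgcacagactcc
Cxcl12: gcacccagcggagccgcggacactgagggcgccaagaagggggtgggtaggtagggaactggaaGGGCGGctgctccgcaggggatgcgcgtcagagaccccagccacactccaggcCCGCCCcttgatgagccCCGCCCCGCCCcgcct
Cxcr4: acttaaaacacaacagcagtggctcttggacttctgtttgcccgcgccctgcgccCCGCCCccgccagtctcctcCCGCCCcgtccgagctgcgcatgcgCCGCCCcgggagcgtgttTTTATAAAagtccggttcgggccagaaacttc
The Cxcl12 window was the richest in G and C, at 72.7%, followed by Cxcr4 at 63.3%, Ccl19 at 60%, Ccl21a at 54% and Cxcl13 at 46.7%. The median over 32851 windows of that length was 54%. GGGCGG, the core of the GC box, occurred 4 times before Cxcl12 and 3 times before Cxcr4 and in 28.6% of all windows. TATAAA lay 46 bases before the start of Cxcl13 and 30 before that of Cxcr4, where it overlaps its own reverse complement, and in 7.57% of all windows. A match describes these letters and no more.

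Of the 2 Cxcl12 probes 1 passed the test. This probe, A_52_P685021, for transcript NM_021704, was 1.58-fold lower in the gastric node, at a mean log2 ratio of -0.66 ± 0.34 (SD, n = 4; limma, Benjamini-Hochberg adjusted p = 0.0425). This was the only member probe of 10 to pass an adjusted p of 0.05, and the other 9 did not. Over all 27603 probes 7.92% passed, 2.99% as higher and 4.92% as lower in the gastric node, so 1 of 10 is a share near that background and is not read as a result about the gene. With a gene's probes averaged, with its brightest probe alone or with the scanner software's processed signals, Cxcl12 did not pass. Same signs in all 4 mice were seen for 5 member probes, 3 higher and 2 lower, against 40.8% of all probes (22.8% higher and 18.0% lower). An unadjusted p under 0.05 was likewise reached by 5 of the 10, against 30.3% of all probes. The median size of the log2 ratio was 0.22 over the member probes and 0.10 over all probes, and the median SD over mice was 0.27 and 0.12. These medians do not describe each member, since Ccl21a and the dimmer Cxcr4 probe lay nearer to 0 than the median of all probes.

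**Figure D1:**
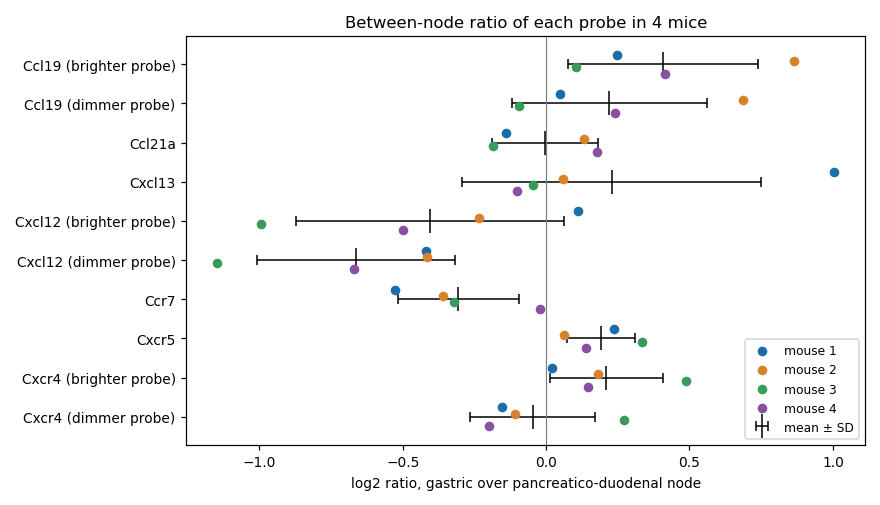
Log2 ratio of gastric over pancreatico-duodenal node for each of the 10 probes, with 1 point per mouse and the mean ± SD of the 4 mice in black. Both Cxcl12 probes have means below 0 and both Ccl19 probes above it. Cxcl13 is at 1.00 in mouse 1 and near 0 in the other mice. With median centring in place of loess, Ccl21a, Ccr7, the brighter Cxcl12 and the dimmer Cxcr4 probe turn sign. The median of all probes is then 0.29.

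The arrays lay on 1 slide, and 67.1% to 71.4% of probes were well above background in the gastric and 59.6% to 62.6% in the pancreatico-duodenal channel. Lymphocyte markers were present in the nodes, with all 12 listed T cell and all 10 listed B cell genes among the tested ones. Transcripts of exocrine pancreas and adipocyte genes differed between the sides, to an extent that varied by mouse. Whether they came from tissue around the nodes was not tested. The median log2 ratio of 10 exocrine pancreas genes was -5.20 in mouse 3 and -0.27, 0.24 and 0.85 in mice 1, 2 and 4. The median of 6 adipocyte genes was 2.05, -2.03, -0.02 and -1.69 in mice 1 to 4. Mouse 1 had the highest Cxcl13 ratio and mouse 3 the lowest Cxcl12 ratio, and the part of these tissues in either was not tested.

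Among the ligands, Ccl19 was read by the brightest member probes, A_51_P458258 and A_51_P458262, both for transcript NM_011888. The brighter of them had log2 intensities of 16.54, 16.82, 16.24 and 16.50 in the gastric node of mice 1 to 4 and of 16.29, 15.95, 16.13 and 16.08 in the pancreatico-duodenal node. The gastric node was the higher in every mouse, most in mouse 2, while the ranges of the nodes overlapped between mice. Log2 ratios were 0.25, 0.86, 0.10 and 0.42 on this probe, a mean of 0.41 ± 0.33 (SD, n = 4; limma adjusted p = 0.0970). On the dimmer probe they were 0.05, 0.69, -0.09 and 0.24, a mean of 0.22 ± 0.34 (adjusted p = 0.297). Neither mean passed the test. Leaving out mouse 2 brought them to 0.26 and 0.06.

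Both Ccl19 probes put the mice in the same order, at an offset that hardly varied. The brighter one read higher by 0.20, 0.18, 0.20 and 0.18 in mice 1 to 4, a mean of 0.19 ± 0.01 (SD, n = 4; exact sign-flip test, p = 0.125, two-sided, the smallest 4 mice can give). Very bright probes read high as a group on these arrays. The 100 probes nearest in brightness had a median log2 ratio of 0.18 for the brighter and 0.07 for the dimmer Ccl19 probe.

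Ccl21a, the neighbour of Ccl19 in the gene table and the other CCR7 ligand, showed no difference larger than the spread over mice. Probe A_51_P129480 (NM_011124) gave log2 intensities of 15.51, 15.62, 15.02 and 15.45 in the gastric node and 15.66, 15.49, 15.21 and 15.28 in the other. The ratio was below 0 in mice 1 and 3, at -0.14 and -0.18, and above it in mice 2 and 4, at 0.13 and 0.18. Its mean of -0.0037 ± 0.19 (SD, n = 4; adjusted p = 0.980) has a 95% interval, from limma's moderated error, of -0.20 to 0.19. Ccl21b and Ccl21c are nearly identical copies of this gene and have no probe of their own under their accessions, so the signal may hold transcripts of all 3.

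Cxcl13, which attracts B cells to follicles, stood out in a single mouse. Probe A_51_P378789 (NM_018866) gave log2 intensities of 12.46, 12.33, 11.94 and 11.85 in the gastric and 11.45, 12.27, 11.98 and 11.96 in the pancreatico-duodenal node. Mouse 1 had both the highest gastric and the lowest pancreatico-duodenal value. Its ratio was 1.00, while those of mice 2 to 4 were 0.06, -0.04 and -0.10. The mean of 0.23 ± 0.52 (SD, n = 4; adjusted p = 0.451) did not pass, and without mouse 1 it was -0.03.

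The Cxcl12 probes are labelled with transcripts NM_001012477 (probe A_51_P172502) and NM_021704 (the called and dimmer probe). Probe sequences were not at hand, so it cannot be told which Cxcl12 transcripts each probe reads. A gap between the probes is therefore not read as a difference between transcripts. The called probe had log2 intensities of 11.98, 11.70, 10.75 and 11.73 in the gastric node and 12.40, 12.12, 11.90 and 12.40 in the pancreatico-duodenal node. Its ratios of -0.42, -0.42, -1.15 and -0.67 were below 0 in each mouse, farthest in mouse 3, although the levels of the nodes overlapped between mice. The other probe was at 0.11, -0.23, -0.996 and -0.50, a mean of -0.40 ± 0.47 (SD, n = 4; adjusted p = 0.179), and did not pass.

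The mice kept nearly the same order on both Cxcl12 probes, with mouse 3 lowest and mouse 4 next. The probe labelled NM_001012477 read higher by 0.53 in mouse 1 and by 0.18, 0.15 and 0.17 in mice 2, 3 and 4 (mean 0.26 ± 0.18, SD, n = 4; exact sign-flip test, p = 0.125, two-sided). Without mouse 3 the called probe was at -0.50 (adjusted p = 0.0807), without mouse 2 at -0.75 (0.145) and without mouse 4 at -0.66 (0.174), so the call needed each of these mice. Over all probes none passed without mouse 2, 5 without mouse 3 and 3 without mouse 4. Without mouse 1 it was kept at -0.74 (adjusted p = 0.0284).

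**Figure D2:**
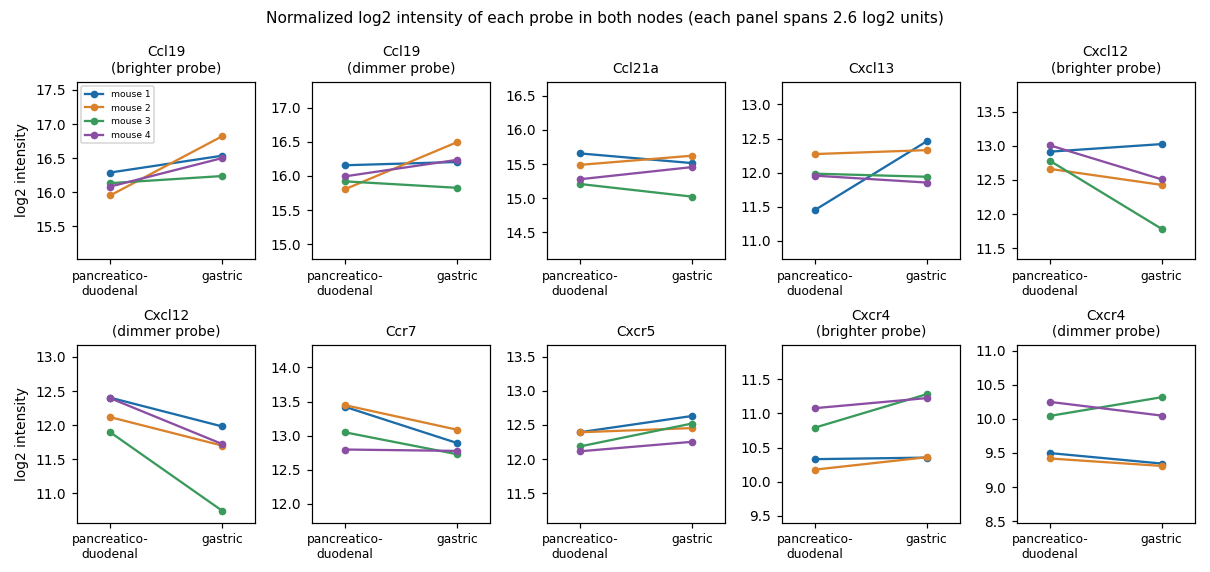
Normalized log2 intensity of each probe in the pancreatico-duodenal and the gastric node, with a line joining the nodes of a mouse. The called Cxcl12 probe, the dimmer one, declines in all 4 mice toward the gastric side, whereas Cxcr4 is separated by mouse, with mice 3 and 4 above mice 1 and 2 in both nodes.

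Markers of fibroblastic stroma and of macrophages were read beside Cxcl12. Of 10 stroma genes 3 were lower in the gastric node and none higher, against 6.38% lower and 2.42% higher of all named genes: Col3a1 (-0.84 ± 0.34), Col1a1 (-0.61 ± 0.25) and Col6a1 (-0.44 ± 0.09), which encode collagen chains (SD, n = 4). The other 7 did not pass. Among them Pdgfra (0.12 ± 0.22) and Pdgfrb (0.08 ± 0.30) had the only positive means of the list, and Pdpn was at -0.19 ± 0.05 (SD, n = 4). The list median over mice 1 to 4 was 0.08, -0.29, -0.66 and -0.42, and of the single genes 6 were lowest in mouse 3 and 4, Col1a1 and Col6a1 among them, in mouse 4. With median centring the median of all probes moved to 0.29. The median over the list was then 0.0021, or -0.29 relative to all probes, and 2 of its genes were higher and 1 lower. Without mouse 2, 3 or 4 none was called, in fits where 0, 5 and 3 of all probes passed. Dpt, the dermatopontin gene of fibroblasts, was at 0.08, -0.10, -0.98 and -0.42 and was among the genes nearest to the brighter Cxcl12 probe. Of 9 macrophage genes 6 were lower and none higher, the extremes being -1.36 ± 0.71 for Adgre1, which encodes F4/80, and -0.43 ± 0.17 for Csf1r, the receptor gene for macrophage growth factors (SD, n = 4). Their list median was -0.85, and -0.36, -0.86, -1.15 and -0.80 in mice 1 to 4. With median centring it was -0.16, or -0.45 relative to the median of all probes. In that setting 4 genes were lower and 1, Csf1r, higher (0.19, or -0.10 relative to all probes). With processed signals 4 were lower. None was called without mouse 2, 3 or 4. The part of stroma and macrophages in the Cxcl12 values was not tested. Endothelial lists differed from each other, with 4 of 6 lymphatic endothelial genes lower (list median -0.66) and 1 of 7 genes of high endothelial venules (list median 0.06). The 4 were Flt4, Reln, Stab1 and Stab2. Prox1, at -0.05 (limma adjusted p = 0.539), and Lyve1, at -0.91 (adjusted p = 0.0593), did not pass. Without mouse 2, 3 or 4 no gene of either endothelial list was called.

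For Cxcl13 the listed follicular dendritic cell genes were read alongside. None of the 8 passed, and mice 1 to 4 had list medians of 0.17, -0.04, -0.15 and -0.12. Cr2, the complement receptor gene of follicular dendritic cells and B cells, was at 1.04 in mouse 1 and 0.09, 0.37 and 0.29 in the others (mean 0.45, adjusted p = 0.120; singled out after its values were seen). Vcam1, with the smallest p of the list, went the other way, at -0.15, -0.31, -0.81 and -0.55 in mice 1 to 4 (mean -0.45, limma adjusted p = 0.0604). The median of the list means was -0.04. The B cell list had no called member, and its medians in mice 1 to 4 were 0.13, -0.03, 0.12 and -0.09.

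**Figure D3:**
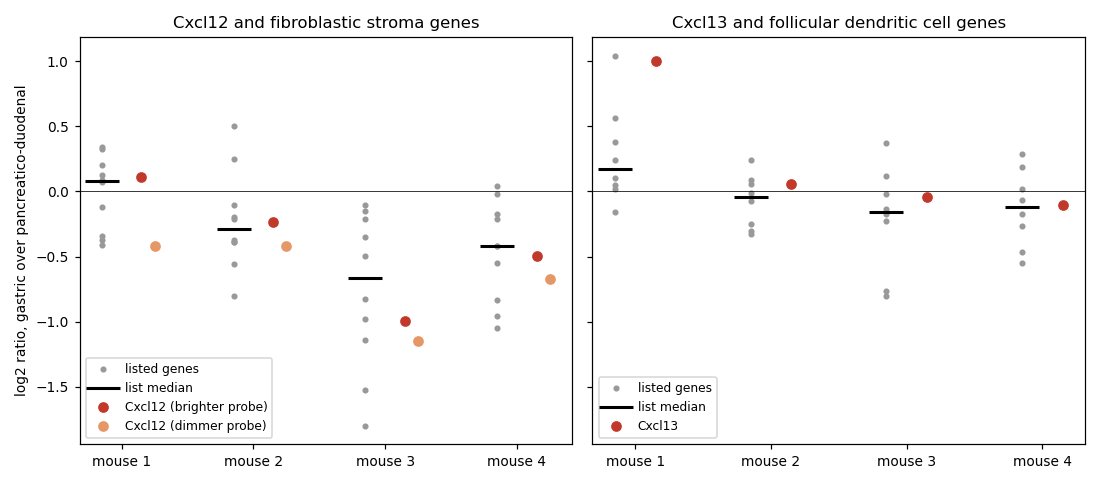
Log2 ratio by mouse of the Cxcl12 probes beside 10 fibroblastic stroma genes (left) and of Cxcl13 beside 8 follicular dendritic cell genes (right), with list medians as black bars. Cxcl12 and the stroma median are both lowest in mouse 3, and Cxcl13 and 1 listed gene, Cr2, lie near 1 in mouse 1.

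Among the receptors, Ccr7, which lets naive T cells and mature dendritic cells follow CCL19 and CCL21, had negative ratios in each mouse. Probe A_51_P420229 (NM_007719) gave log2 intensities of 12.89, 13.09, 12.73 and 12.78 in the gastric and 13.42, 13.45, 13.05 and 12.80 in the pancreatico-duodenal node. The ratios were -0.53, -0.36, -0.32 and -0.02, so that mouse 4 was close to 0. The mean of -0.31 ± 0.21 (SD, n = 4) had an unadjusted p of 0.0124 in limma and did not pass after adjustment (adjusted p = 0.0806). It was 0.33 with median centring, where the median of all probes had moved to 0.29. Of its ligands, Ccl19 had positive means and Ccl21a a mean near 0.

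T cell and mature dendritic cell markers were read beside Ccr7. The T cell list had 2 of 12 members higher, Cd3g (0.32 ± 0.14) and Cd28 (0.33 ± 0.15), and none lower, with a list median of -0.06, 0.15, 0.14 and 0.32 in mice 1 to 4. The mature dendritic cell list had 1 of 7 lower, Fscn1, the gene of the actin bundler fascin, at -0.65 ± 0.30 (SD, n = 4), and none higher, with medians of -0.17, -0.38, -0.45 and -0.05. Over all named genes 2.42% were higher and 6.38% lower, and with lists this short nothing is read from single calls. Neither list had a call with processed signals or without mouse 2, 3 or 4. Without those mice 0, 5 and 3 of all probes passed. The Ccr7 ratio was nearest to 0 in mouse 4, as was the dendritic cell median, while the T cell median was highest there. It was lowest in mouse 1, as was the T cell median, while the dendritic cell median was lowest in mouse 3. The part of either cell type in the Ccr7 value was not tested.

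Cxcr5, the receptor gene of follicular B cells and follicular helper T cells, had small positive ratios throughout. Probe A_52_P70796 (NM_007551) gave log2 intensities of 12.63, 12.45, 12.52 and 12.25 in the gastric and 12.39, 12.39, 12.19 and 12.11 in the other node. Its ratios were 0.24, 0.06, 0.33 and 0.14, with the smallest SD of the 10 probes. The mean of 0.19 ± 0.12 (SD, n = 4; adjusted p = 0.0970) did not pass. The list of follicular helper and germinal centre genes had 1 of 9 higher, Sh2d1a, which encodes the adaptor SAP, at 0.58 ± 0.21, and none lower, with a list median of 0.16. Over all named genes 2.42% were higher, and nothing is read from this single call. It was lost with processed signals and without mouse 2, 3 or 4, in fits where 0, 5 and 3 of all probes passed.

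Cxcr4, the CXCL12 receptor gene, was read by probes A_52_P585124 and A_52_P565353, both for NM_009911. The brighter had ratios of 0.02, 0.18, 0.49 and 0.15, a mean of 0.21 ± 0.20 (SD, n = 4; adjusted p = 0.154), and the dimmer -0.15, -0.11, 0.27 and -0.20, a mean of -0.05 ± 0.22 (adjusted p = 0.739). Neither passed, and mouse 3 was the highest on both. The brighter probe read higher by 0.26 ± 0.08 (SD, n = 4), with the same sign in 4 of 4 mice (exact sign-flip test, p = 0.125, two-sided). Where its mean was positive, that of the dimmer probe was below 0, so no direction is given for the gene.

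The level of Cxcr4 differed far more between mice than between nodes. On the brighter probe the log2 intensity was 10.35, 10.36, 11.28 and 11.23 in the gastric node of mice 1 to 4 and 10.33, 10.18, 10.79 and 11.08 in the pancreatico-duodenal node. Mice 3 and 4 thus lay above mice 1 and 2 in both nodes, by at least 0.87 in the gastric and 0.46 in the pancreatico-duodenal node. On the dimmer probe the gaps were 0.70 and 0.55. After each array was centred on its median, the SD of the mean intensity over mice was 0.57 on the brighter and 0.56 on the dimmer probe, larger than in 99.6% of all probes in both cases. Each mouse had 1 array and no step between arrays was applied, so mouse and array cannot be told apart. The same SD was 0.24 and 0.29 for the Cxcl12 probes, also larger than in 95.8% and 97.6% of all probes. For Cxcl13 it was 0.15, and only 0.05 for both Ccl19 probes.

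**Figure D4:**
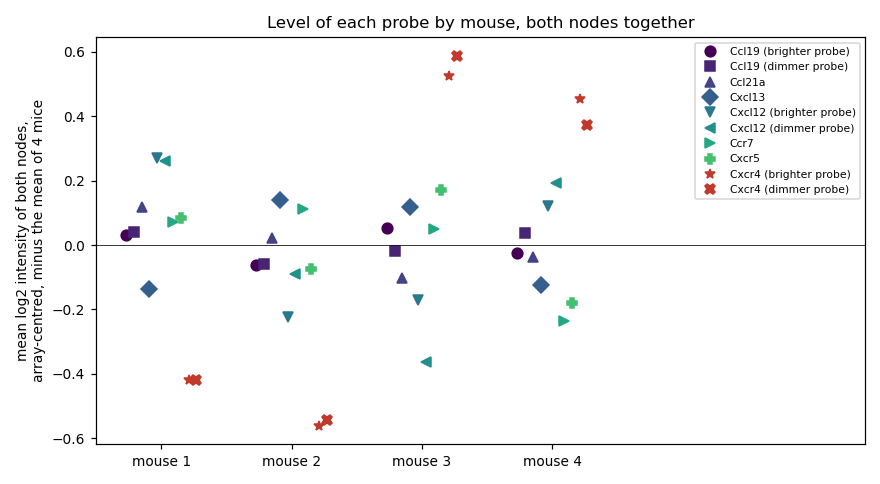
Mean log2 intensity of both nodes for each probe, centred on the array's median, minus the mean of the 4 mice. Both Cxcr4 probes are about 1 log2 unit higher in mice 3 and 4 than in mice 1 and 2, and the other member probes vary less.

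Brightness bears on all of these values. The member probes were among the brighter ones, from the 73.0 percentile for the dimmer Cxcr4 probe to the 99.7 percentile for the Ccl19 probes. Loess removes the trend of the ratio with brightness on each array. With median centring in its place 8 of the 10 member probes were called higher and none lower, Ccl19 reached 1.23 and 1.03, and the called Cxcl12 probe stood at -0.08 (adjusted p = 0.561), or at -0.38 relative to the median of all probes. Apart from the brightest ones, member probes had neighbours in brightness close to 0 after loess, with medians from -0.04 for Ccr7 to 0.05 for Cxcr5.

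**Figure D5:**
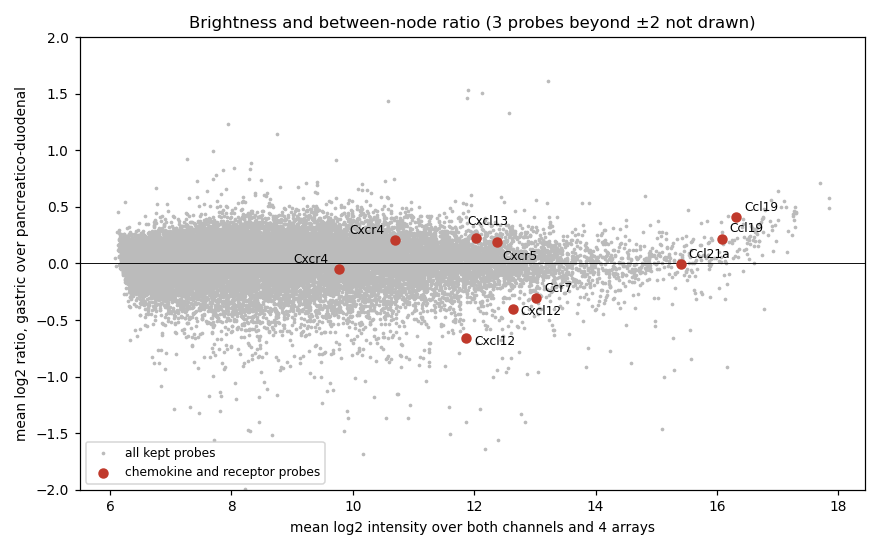
Mean log2 ratio against mean log2 intensity for all 27603 probes (grey) and the 10 member probes (red). The called Cxcl12 probe lies at -0.66, below most probes of its brightness, and the Ccl19 probes lie at the bright end, where the grey points also bend upward.

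Other parts of the same signalling system were read from 5 lists of genes. In these lists, with 72 tested genes, 7 (9.72%) genes were lower in the gastric node and none higher, against 6.38% lower and 2.42% higher of the 13401 named genes, so the share is not read as a result about the lists. With median centring, where the median of all probes was 0.29, 59 were higher and 2 lower. Without mouse 2, 3 or 4 none of the 7 was called as lower, in fits where 0, 5 and 3 of all probes passed. Among 25 genes of receptor signalling 3 were lower, Gnai2 (-0.26 ± 0.09) and Gnb2 (-0.27 ± 0.04), which encode subunits of the G proteins that chemokine receptors couple to, and Fermt3 (-0.31 ± 0.12), which encodes the integrin activator kindlin-3 (SD, n = 4). The list median was 0.0062, beside 0.0044 over the named genes. All 3 turned positive with median centring.

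Scavengers and processing enzymes of these chemokines gave no call. None of 6 genes passed, with Dpp4, the peptidase that trims CXCL12, the brightest, at 0.09 ± 0.33 (SD, n = 4; adjusted p = 0.648). Ackr3, a scavenger of CXCL12, was at -0.11 ± 0.33 and Ackr4, a scavenger of CCL19 and CCL21, at -0.13 ± 0.43 (SD, n = 4; adjusted p = 0.568 and 0.605). The list median was -0.09.

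In the other homeostatic chemokine axes 1 of 6 tested genes was lower and none higher. It was Cxcl14, a chemokine gene of epithelium and stroma, with ratios of -1.23, -0.87, -1.14 and -1.31 and a mean of -1.14 ± 0.19 (SD, n = 4; adjusted p = 0.0162). This is farther from 0 than any member probe, it held with median centring (-0.87), and the call was lost in 4 of 19 alternatives. The receptor gene Ccr6 was at 0.21 ± 0.21 and Ccr9 at -0.18 ± 0.22, or 0.35 with median centring, and did not pass after loess.

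Of 17 genes of other positioning cues 2 were lower and none higher. They were Sgpl1 (-0.23 ± 0.03), which encodes the lyase that degrades sphingosine 1-phosphate, and Hsd3b7 (-0.27 ± 0.09), which encodes an enzyme that removes the oxysterol ligand of GPR183 (SD, n = 4). The list median was -0.07, and both genes turned positive with median centring, where the median of all probes was 0.29. The lymphotoxin and organiser list, whose products induce homeostatic chemokines in stroma, had 1 of 18 lower, the receptor gene Ltbr at -0.35 ± 0.15 (adjusted p = 0.0425), and none higher, with a list median of -0.05. Ltbr also turned sign with median centring, to 0.15, which was below the median of all probes in that setting. Its ligand genes did not pass, with Lta at 0.22 ± 0.07 (adjusted p = 0.0509) and Ltb at 0.05 ± 0.23 (SD, n = 4; adjusted p = 0.742).

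Likeness of pattern was measured as the root mean square difference of the log2 ratio over the 4 mice. The brightest kept probe of each gene was used. For Cxcl12 that is the probe that was not called, and for Cxcr4 the probe with a positive mean. Nearest to Ccl19 were Slc9b2 (0.11) and Igtp (0.14), and no named gene lay within 0.1. Nearest to Cxcl12 were Fmnl2 (0.06) and Dpt (0.08), with 3 genes within 0.1, and to Cxcl13 Ppip5k2 (0.05) and Lin7c (0.06), with 15. For Ccr7 they were Ercc2 (0.03) and Mxd1 (0.07), with 19 genes within 0.1. Cxcr5 had Hvcn1 (0.04) and Dlat (0.04), Cxcr4 had Csk (0.01) and Uck2 (0.05), and Ccl21a had Arhgef16 (0.03) and Rimkla (0.03). The number of genes within 0.1 was 281 for Cxcr5 and 98 for each of Cxcr4 and Ccl21a, since many genes have ratios near 0.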

How the data were processed

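The deposited scanner files hold the mean and background median intensity of 45018 spots in both channels, made by the authors with Agilent Feature Extraction 10.2.1.3, per the file headers. The deposited series table holds log2 values that match, spots averaged, the software's processed Cy5 over Cy3 signals (largest difference 5.11e-05). Background was corrected by normexp (offset 50) and each array normalized by loess (limma version 3.58.1, R version 4.3.3, package data.table, version 1.17.8), with control and outlier-flagged spots at weight 0. A probe needed 3 of 4 arrays well above background in a channel, and each probe was its own feature. The mean ratio was set against 0 by lmFit and eBayes, Benjamini-Hochberg adjusted over all 27603 kept probes at 0.05. Symbols came from RefSeq accessions (assembly GRCm38.p6), which named 24844 of 41174 probes. Lists used the brightest kept probe of each gene. The text names every member probe, called list genes (up to 4 a list, or the brightest where none was called) and the 2 genes nearest to each member in pattern. The members and lists were chosen with earlier results of these data known. Fits were tested on simulated intensities. Each mouse is 1 animal per the labels, and both nodes of a mouse share an array, which pairs them. Alternatives covered background, normalization, filter, probe choice, variance model, pairing, threshold, the source of the values and each mouse left out.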

Additional observations from a re-analysis of the deposited data

Results flagged for a closer look

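The Cxcl13 ratio of 1.00 in mouse 1 lay far from those of the other 3 mice (0.06, -0.04 and -0.10). Its gap to the nearest of them made up 0.857 of the whole range, above Dixon's 95% critical value, which chance passes in about 5% of groups. It was the only one of the 10 member probes singled out in this way. The share over all probes was not counted, so 1 of 10 is not read as a result about the gene. Ppip5k2 and Lin7c were near 1 in mouse 1 (1.03 and 0.99). They were picked as the genes nearest to Cxcl13 in pattern, so this follows from the choice and is no separate observation.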

How the results depend on the processing

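Median centring in place of loess moved the median of all probes to 0.29 and turned these called or newly called values from below to above 0: Ccl21a (0.77), Ccr7 (0.33), the dimmer Cxcr4 probe (0.44), Gnai2 (0.34), Gnb2 (0.37), Fermt3 (0.26), Sgpl1 (0.32), Hsd3b7 (0.26), Ltbr (0.15), Csf1r (0.19), Ccr9 (0.35), Col6a1 (0.0070) and Arhgef16 (0.27). The brighter Cxcl12 probe (0.21), Dpt (0.14), Fmnl2 (0.12), Lum (0.08) and Ackr3 (0.03) also turned positive, without a call in either setting. Over all probes 826 were called higher and 1359 lower. The counts were 16108 and 2859 with median centring, 494 and 738 with the scanner software's processed signals, 494 and 739 with the authors' series table, and 2503 and 2776 at an adjusted p under 0.1. Scaling between arrays gave 1312 higher. The split of calls was 37.8% higher in the main setting, 84.9% with median centring and 40.1% with processed signals. Leaving out 1 mouse gave 0 to 1128 higher and 0 to 1924 lower, with 0 of both without mouse 2 (5580 probes at an unadjusted p under 0.05). Treating the channels as unpaired, without the replicate block of the mouse, gave 1 higher and 6 lower. No member and no gene of the 5 lists of the signalling system was then called (0), while 1 of the 9 macrophage genes was lower.

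The member count was 1 lower and 0 higher. It was 8 higher and 0 lower with median centring and 2 higher and 2 lower at an adjusted p under 0.1. It was 0 lower with processed signals, the series table, the brightest probe or a gene's probes averaged, and 0 to 1 lower with 1 mouse left out. The called Cxcl12 probe was at -0.65 (adjusted p = 0.0623) with processed signals and with the series table, and its sign held in all 17 alternatives that gave a value, from -0.75 to -0.08 (adjusted p from 0.0284 to 0.561). Of the genes in the 5 lists of the signalling system, 7 were lower and 0 higher. The counts were 59 higher and 2 lower with median centring, 4 higher at an adjusted p under 0.1, and 1 higher with scaling between arrays, with no filter or with the mean of probes. Lower calls numbered 4 with a normexp offset of 10, and 1 with processed signals or the series table. With 1 mouse left out they ranged from 0 to 7, with 0 to 1 higher. The array number of 4 limits all tests.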
